A study of Homo sapiens with 12 samples.

Results

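The genes described here encode the enzymes and transporters of glycolysis, glucose and lactate transport, gluconeogenesis and the first steps towards glycogen. They were taken from a list of 40 named genes, chosen for their place in these routes and with earlier results of these data known. Of these, 37 had a probe set annotated with exactly 1 gene symbol, out of 18404 such genes on the array, and a gene with several was read from the one of highest mean over all arrays. A filter on dim probe sets left 31 of the 40 among 13199 genes tested. HK1, PFKM, LDHB, PDK4, FBP1 and GYS2 were too dim to pass it. PGAM1, SLC16A1 and SLC16A3 had no probe set with 1 symbol in the annotation used here, and PGAM1 shared its probe sets with PGAM4.

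Messenger RNA came from HepG2C3A, a clone of the human hepatoma line HepG2 that is used as a stand-in for hepatocytes, and was hybridised to Human Gene 1.0 ST arrays (Affymetrix). All cultures lasted 96 h. They were kept in Petri dishes or in a microsystem that the labels do not describe. In each culture, 3 arrays were controls without drug and 3 were of cells exposed to acetaminophen, an analgesic that the liver converts in part to a reactive quinone imine, for 72 of those hours. Groups are called by culture and treatment, and arrays by replicate number, as in Petri control 1. The sources used here give no dose. All 4 groups share the line and the culture time. The labels do not state that replicates were grown separately, so a p-value speaks of the spread among these samples alone, which may be technical.

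Glycolysis turns glucose into pyruvate, which is reduced to lactate or enters mitochondria through pyruvate dehydrogenase, and the liver can run most of the route backwards to release glucose. Flux is set mainly at glucose uptake, hexokinase, phosphofructokinase and pyruvate kinase, and several steps have a liver isozyme and another that predominates in proliferating or oxygen-poor cells. Many glycolytic genes are also known targets of hypoxia-inducible factors, transcription factors that are stabilised when oxygen is low and bind a short core sequence, ACGTG or GCGTG.

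The array medians of the deposited log2 intensities lay between 5.556 and 5.629, no 2 arrays held identical values, and arrays of a group correlated with r between 0.991 and 0.995 across probe sets. Precision is limited by the number of arrays. The first principal component, with 63.7% of the variance, separated the cultures, and the second, with 14.4%, separated treated from control arrays. Both microsystem arrays numbered 3 stood apart on the third component, with 6.77% of the variance, at scores of -17.2 and -13.9. Of 8 hepatic markers, 7 were measured, and they lay between percentiles 97 and 99.9 of all probe sets on every array. None of 4 endothelial markers passed the filter. Of 4 leukocyte markers, CD68 (percentiles 79.9 to 92.7) and CD14 (44.3 to 56.1) passed it, while PTPRC, the pan-leukocyte marker, stayed between percentiles 7.61 and 11.8. Of 6 fibroblast markers 4 passed it, between percentiles 41.8 and 60.8, and none of these 4 passed limma's test in any comparison. Microarray values are relative to the RNA of a sample, so fewer expressing cells and less RNA per cell cannot be told apart.

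Promoter sequences are shown for the members with the lowest differences between cultures that have an entry in the RefSeq promoter table (build GRCh38.p14), and for LDHA, a known hypoxia target that did not pass the test between cultures, though it did among treated cells under some alternatives. Each stretch is the 250 bases before an annotated start site, 5′ to 3′ on the gene's strand. Capitals mark ACGTG or GCGTG on either strand, so that ACGTG read from the other strand appears as CACGT, and the palindrome CACGTG holds a match on each strand. Where a gene had several windows, the one with most ACGTG matches is shown. The stretches lie at chr2:74834920-74835169 (plus strand) for HK2, chr10:6202682-6202931 (plus) for PFKFB3, chr12:6914330-6914579 (plus) for ENO2, chr3:48556804-48557053 (minus) for PFKFB4, chr2:172555840-172556089 (plus) for PDK1 and chr11:18394313-18394562 (plus) for LDHA.
HK2: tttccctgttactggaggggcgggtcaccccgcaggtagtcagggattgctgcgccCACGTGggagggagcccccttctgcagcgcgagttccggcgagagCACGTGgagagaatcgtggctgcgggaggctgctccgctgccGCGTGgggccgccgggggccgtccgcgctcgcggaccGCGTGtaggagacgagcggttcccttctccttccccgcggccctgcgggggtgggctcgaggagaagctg
PFKFB3: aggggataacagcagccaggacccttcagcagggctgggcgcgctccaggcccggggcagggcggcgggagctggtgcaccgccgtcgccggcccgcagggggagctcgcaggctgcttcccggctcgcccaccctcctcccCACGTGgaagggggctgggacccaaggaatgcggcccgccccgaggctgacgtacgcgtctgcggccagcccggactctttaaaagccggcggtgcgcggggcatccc
ENO2: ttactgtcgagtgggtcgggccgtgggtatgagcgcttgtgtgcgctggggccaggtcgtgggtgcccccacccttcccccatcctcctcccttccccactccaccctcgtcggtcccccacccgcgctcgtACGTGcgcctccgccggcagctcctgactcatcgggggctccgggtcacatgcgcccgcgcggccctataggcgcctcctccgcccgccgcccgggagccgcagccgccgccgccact
PFKFB4: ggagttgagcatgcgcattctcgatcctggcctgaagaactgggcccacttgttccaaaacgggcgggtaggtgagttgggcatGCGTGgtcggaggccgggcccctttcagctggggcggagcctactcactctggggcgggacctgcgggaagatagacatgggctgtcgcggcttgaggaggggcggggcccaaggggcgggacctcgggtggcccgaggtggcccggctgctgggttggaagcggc
PDK1: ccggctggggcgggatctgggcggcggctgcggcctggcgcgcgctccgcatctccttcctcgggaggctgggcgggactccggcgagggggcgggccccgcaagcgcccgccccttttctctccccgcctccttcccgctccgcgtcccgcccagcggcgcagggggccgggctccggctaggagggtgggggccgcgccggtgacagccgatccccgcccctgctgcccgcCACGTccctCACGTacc
LDHA: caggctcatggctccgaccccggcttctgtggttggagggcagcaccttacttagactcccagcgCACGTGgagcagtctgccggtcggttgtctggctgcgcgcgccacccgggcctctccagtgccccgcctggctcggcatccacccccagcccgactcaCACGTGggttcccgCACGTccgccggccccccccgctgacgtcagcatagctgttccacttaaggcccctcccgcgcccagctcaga

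The HK2 stretch held 2 copies of CACGTG and 2 of GCGTG, while that of PFKFB4 held 1 GCGTG and no ACGTG. The LDHA stretch held more ACGTG matches, 5 counting both strands, than that of any other gene shown. These counts follow the choice of window. The other windows of LDHA, PFKFB3 and PDK1 held no ACGTG, and that of HK2 held 2. In the whole table, 24.9% of 27305 genes had ACGTG in a window of 300 bases (250 before to 50 after a start). Among members that were lower in the microsystem, 10 of 15 genes with an entry had it, or 66.7%. Among tested members that did not pass between cultures, 8 of 11 had it, or 72.7%. For GCGTG the shares were 40.6% of all genes, 60% (9 of 15) of members that were lower and 63.6% (7 of 11) of members that did not pass. The order turned round per window, since the members that did not pass had more windows per gene. ACGTG was in 13 of 22 windows (59.1%) of members that were lower, in 8 of 21 (38.1%) of members that did not pass and in 21.4% of all windows. GCGTG was in 50% (11 of 22), 38.1% (8 of 21) and 36.5%. The shares of all genes and windows cover every promoter in the table. They were not narrowed to the genes tested here or matched for base composition. A match is only these letters in a window. SLC2A3, PFKFB2, PCK1, SLC16A1 and GYS2 had no entry.

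The first question was how the pathway differed between cultures. In the microsystem, RNA of SLC2A1, SLC2A2, SLC2A3, HK2, the PFKFB3 and PFKFB4 regulators, several glycolytic enzymes and PDK1 was lower than in Petri dishes. PFKFB2 and BPGM were higher. Among control cells, 17 of the 31 tested members fell, 3 rose and 11 did not pass. A gene is said to rise or fall where limma's moderated test gave an adjusted p under 0.05, with Benjamini-Hochberg adjustment over all genes tested. Differences are on the log2 scale, and errors after ± are standard errors of that fit unless called SD. In that comparison 18.3% of all genes fell and 26.5% rose. Among treated cells, 17 members fell and 3 rose, against 18.9% and 22.6% of all genes. The comparisons use different arrays, though they share 1 estimate of the spread, and all 17 members that fell among control cells also fell among treated cells. The median log2 difference (microsystem minus Petri) of the 31 members was -0.28 in control and -0.38 in treated cells, against 0.01 and 0.00 over all genes. The 3 control arrays of each culture did not overlap for 20 members, of which 17 were lower in the microsystem, and 3 higher, against 22.9% and 29.5% of all genes. Among treated cells 16 members were lower without overlap and 5 higher, against 24.8% and 28.1%. Without both microsystem arrays numbered 3, 15 members fell and 4 rose among control cells, and 18 fell and 3 rose among treated cells. Of all 13199 genes, 2367 fell and 3472 rose among control cells in that fit, and 2453 fell and 2854 rose among treated cells.

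**Figure D1:**
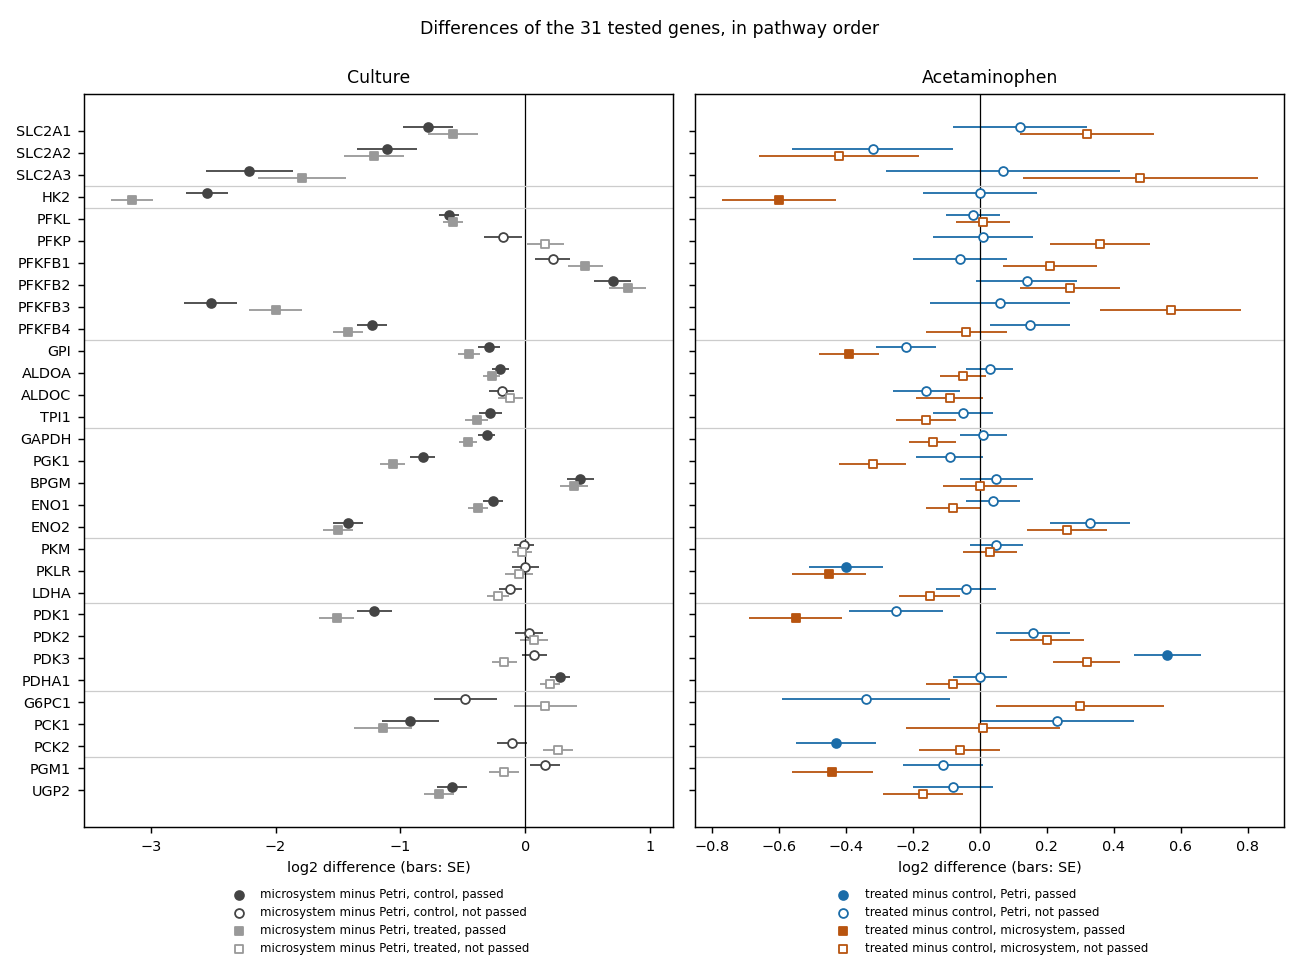
Log2 differences of the 31 tested genes, listed from glucose transporters to glycogen precursor enzymes, with standard errors as bars; filled symbols passed the test. The left panel gives culture differences (microsystem minus Petri) in control and treated cells, where HK2, PFKFB3 and SLC2A3 lie farthest below 0, and the right panel gives treated minus control in each culture on a narrower axis.

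All 3 tested transporters among the members were lower in the microsystem. SLC2A1, the widespread glucose transporter GLUT1, read 11.69, 11.90 and 12.08 on the Petri control, 11.90, 12.03 and 12.11 on the Petri treated, 11.00, 10.84 and 11.50 on the microsystem control and 11.11, 11.24 and 11.95 on the microsystem treated arrays. Its log2 difference was -0.78 ± 0.20 in control cells (adjusted p = 0.00689) and -0.58 ± 0.20 in treated cells (adjusted p = 0.0341). The control groups did not overlap, but microsystem treated 3 lay among the Petri treated arrays. The call in treated cells was lost without microsystem treated 1 (-0.42, adjusted p = 0.146), microsystem treated 2 (-0.49, adjusted p = 0.121), Petri treated 2 (-0.57, adjusted p = 0.0805) or Petri treated 3 (-0.54, adjusted p = 0.0997). SLC2A2, the low-affinity transporter GLUT2 of hepatocytes, read 8.31, 8.52 and 8.28 on the Petri control, 7.95, 8.19 and 8.02 on the Petri treated, 6.71, 7.26 and 7.82 on the microsystem control and 6.42, 6.77 and 7.34 on the microsystem treated arrays. It was 2.15-fold lower in the microsystem among control cells (-1.11 ± 0.24, adjusted p = 0.0023) and 2.32-fold lower among treated cells (-1.21 ± 0.24, adjusted p = 0.00136). In both treatments every microsystem array lay below every Petri array. SLC2A3, the high-affinity transporter GLUT3, read 12.32, 12.52 and 12.74 on the Petri control, 12.54, 12.58 and 12.68 on the Petri treated, 9.65, 10.12 and 11.19 on the microsystem control and 10.33, 10.45 and 11.64 on the microsystem treated arrays. The difference was -2.21 ± 0.35 (adjusted p = 0.000218) in control and -1.79 ± 0.35 (adjusted p = 0.00116) in treated cells, the largest of the 3. The values of SLC2A3 are uncertain because SLC2A14 is a near-identical copy, and SLC2A14's own probe set fell by 2.13 among control cells. In both microsystem groups all 3 transporters were highest on the array numbered 3. With both of those arrays left out, each transporter still fell in both treatments.

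Hexokinase traps glucose in the cell as glucose phosphate, and HK2 is the isozyme of tumours and insulin-sensitive tissue. HK2 read 11.86, 11.97 and 12.17 on the Petri control, 11.84, 12.04 and 12.12 on the Petri treated, 9.20, 9.43 and 9.71 on the microsystem control and 8.60, 8.69 and 9.25 on the microsystem treated arrays. All 6 microsystem arrays lay below all 6 Petri arrays. The difference was -2.55 ± 0.17 in control cells (adjusted p = 2.26e-07), or 5.85-fold lower, and -3.15 ± 0.17 in treated cells (adjusted p = 4.47e-08), or 8.9-fold lower. Ordered from the lowest difference, HK2 stood at place 5 of 13199 genes among control cells and at place 1 among treated cells. HK1, the housekeeping isozyme, had group means between 4.40 and 4.71, where the filter lay between 4.80 and 4.90, so it was near or under the limit of this measurement and was not tested.

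Phosphofructokinase commits sugar to glycolysis, and the PFKFB enzymes make and remove its strongest activator. PFKL, the liver subunit, read 9.99, 9.93 and 10.06 on the Petri control, 9.88, 10.01 and 10.02 on the Petri treated, 9.26, 9.48 and 9.42 on the microsystem control and 9.41, 9.39 and 9.40 on the microsystem treated arrays. The cultures did not overlap. Its culture difference was -0.61 ± 0.08 (adjusted p = 4.69e-05) and -0.58 ± 0.08 (adjusted p = 9.05e-05). PFKP, the platelet subunit, did not pass (-0.18 ± 0.15, adjusted p = 0.329, and 0.16 ± 0.15, adjusted p = 0.422), and PFKM, the muscle subunit, was dim, with group means between 4.31 and 4.82. PFKFB3, the inducible form with high kinase activity, read 8.79, 9.35 and 9.50 on the Petri control, 8.90, 9.43 and 9.50 on the Petri treated, 7.00, 6.82 and 6.28 on the microsystem control and 7.33, 7.36 and 7.13 on the microsystem treated arrays. It stood at place 6 from the lowest difference among control cells, at -2.52 ± 0.21 (adjusted p = 1.38e-06), and differed by -2.00 ± 0.21 (adjusted p = 8.91e-06) among treated cells. PFKFB4, another inducible form, read 9.21, 9.33 and 9.49 on the Petri control, 9.26, 9.61 and 9.61 on the Petri treated, 8.27, 8.18 and 7.89 on the microsystem control and 8.14, 8.08 and 8.01 on the microsystem treated arrays. Here too the cultures were fully separate, with -1.23 ± 0.12 (adjusted p = 4.29e-06) and -1.42 ± 0.12 (adjusted p = 1.55e-06).

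The remaining PFKFB genes, PFKFB2 and PFKFB1, were higher in the microsystem or did not pass. PFKFB2, the form known from heart, read 6.14, 6.10 and 6.10 on the Petri control, 6.13, 6.42 and 6.22 on the Petri treated, 6.98, 6.87 and 6.58 on the microsystem control and 6.96, 7.48 and 6.80 on the microsystem treated arrays. It rose, at 0.70 ± 0.15 (adjusted p = 0.0022) in control and 0.82 ± 0.15 (adjusted p = 0.000767) in treated cells, and every microsystem array lay above every Petri array. PFKFB1, the liver form, was dimmer, at 4.92 to 5.32 on the Petri control and 5.03 to 5.66 on the microsystem control arrays. It did not pass among control cells (0.22 ± 0.14, adjusted p = 0.236) but passed without microsystem control 3 (0.37, adjusted p = 0.0341). Among treated cells it rose, at 0.48 ± 0.14 (adjusted p = 0.014), a call that was lost without microsystem treated 2 (0.44, adjusted p = 0.0515) or Petri treated 3 (0.45, adjusted p = 0.0522).

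**Figure D2:**
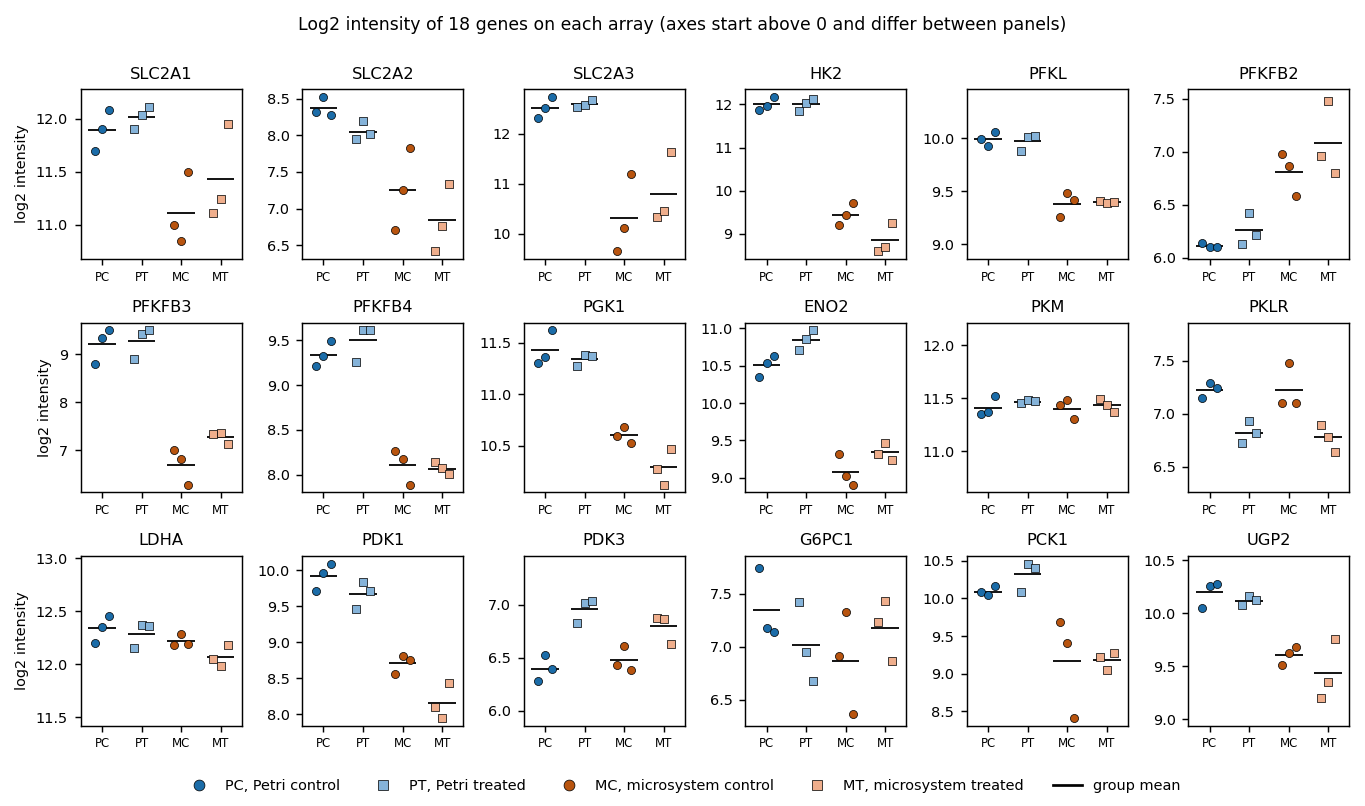
Log2 intensity of 18 genes on each of the 12 arrays, 1 panel per gene, with replicates 1, 2 and 3 from left to right in a group and a line at each group mean; axes start above 0 and differ between panels. HK2, PFKFB3, PFKFB4, ENO2 and PDK1 separate by culture on every array, PKM does not, PKLR is lower on treated arrays of both cultures, and PDK3 is higher on the Petri treated than on the Petri control arrays.

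The enzymes between fructose phosphate and triose phosphate differed by less. GPI, which isomerises glucose phosphate, was lower in the microsystem, at -0.29 ± 0.09 (adjusted p = 0.0167) in control and -0.45 ± 0.09 (adjusted p = 0.00109) in treated cells. Its call in control cells was lost without microsystem control 3 (-0.24, adjusted p = 0.062) or Petri control 3 (-0.25, adjusted p = 0.0633). ALDOA, the widespread aldolase, fell by 0.20 (adjusted p = 0.0322) and 0.27 (adjusted p = 0.00624) on the log2 scale. In control cells that call was lost without Petri control 2 or 3 or any single microsystem control array, with differences of -0.17 to -0.20 and adjusted p-values of 0.0564 to 0.105, and with only the arrays compared in the fit (adjusted p = 0.0945). ALDOC, the brain-type aldolase, did not pass (-0.19 ± 0.10, adjusted p = 0.149, and -0.12 ± 0.10, adjusted p = 0.383). TPI1, triose phosphate isomerase, had 2 probe sets that disagreed. The brighter one, which stood for the gene, differed by -0.28 ± 0.09 (adjusted p = 0.0149) and -0.39 ± 0.09 (adjusted p = 0.00237), the first of which was lost without Petri control 3 (-0.22, adjusted p = 0.0723). The dimmer one, with a mean of 5.98, gave 0.45 (adjusted p = 0.0639 with every probe set tested by itself) and 0.01 (adjusted p = 0.97). The mean of both reversed the sign among control cells, to 0.08 (adjusted p = 0.626), and among treated cells it gave -0.19 (adjusted p = 0.256), so TPI1 counts among the 17 of each treatment through its brighter probe set alone.

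In lower glycolysis, 4 of 5 tested genes fell in both treatments and BPGM rose. GAPDH, often used as a reference gene, lay between 13.27 and 13.34 on the Petri control arrays and between 12.96 and 13.05 on the microsystem control arrays. This small gap of -0.31 ± 0.07 (adjusted p = 0.00278) was wider in treated cells, at -0.46 ± 0.07 (adjusted p = 0.000182), though the change of the gap did not pass (adjusted p = 0.8). PGK1, the first step that yields ATP, read 11.30, 11.36 and 11.62 on the Petri control, 11.27, 11.38 and 11.37 on the Petri treated, 10.59, 10.68 and 10.53 on the microsystem control and 10.27, 10.12 and 10.47 on the microsystem treated arrays. The cultures did not overlap, and PGK1 was lower in the microsystem, at -0.82 ± 0.10 (adjusted p = 3.28e-05) and -1.06 ± 0.10 (adjusted p = 5.1e-06). BPGM, which makes bisphosphoglycerate, was higher in the microsystem, at 0.44 ± 0.11 (adjusted p = 0.00649) and 0.39 ± 0.11 (adjusted p = 0.0139), the second of which was lost without Petri treated 1 (0.34, adjusted p = 0.0522). ENO1, the common enolase, fell by 0.26 (adjusted p = 0.0217) and 0.38 (adjusted p = 0.00252), and in control cells its call was lost without microsystem control 1 (-0.23, adjusted p = 0.0661) or Petri control 3 (-0.21, adjusted p = 0.0919). ENO2, the enolase known from neurons, read 10.35, 10.54 and 10.63 on the Petri control, 10.71, 10.85 and 10.97 on the Petri treated, 9.32, 9.02 and 8.91 on the microsystem control and 9.32, 9.47 and 9.24 on the microsystem treated arrays. All 6 microsystem arrays lay below all 6 Petri arrays, with differences of -1.42 ± 0.12 (adjusted p = 1.29e-06) and -1.50 ± 0.12 (adjusted p = 8.49e-07). GAPDH, PGK1, ENO1, TPI1 and LDHA have processed pseudogenes, and whether their probe sets also read those copies was not tested.

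The last steps to pyruvate and lactate did not pass between cultures. PKM, the pyruvate kinase of most tissues and tumours, read 11.35, 11.37 and 11.52 on the Petri control, 11.45, 11.48 and 11.47 on the Petri treated, 11.43, 11.48 and 11.30 on the microsystem control and 11.49, 11.43 and 11.37 on the microsystem treated arrays. All groups overlapped, and the 95% interval of the culture difference ran from -0.18 to 0.16 in control cells and from -0.20 to 0.14 in treated cells. PKLR, the liver and red cell form, read 7.15, 7.29 and 7.24 on the Petri control, 6.73, 6.93 and 6.82 on the Petri treated, 7.10, 7.48 and 7.10 on the microsystem control and 6.90, 6.78 and 6.64 on the microsystem treated arrays. Its culture difference was 0.00 ± 0.11 (95% interval -0.24 to 0.23) and -0.05 ± 0.11 (-0.29 to 0.19), while treated arrays were low in both cultures. LDHA, which reduces pyruvate to lactate, read 12.20, 12.35 and 12.46 on the Petri control, 12.15, 12.37 and 12.36 on the Petri treated, 12.18, 12.29 and 12.19 on the microsystem control and 12.05, 11.98 and 12.18 on the microsystem treated arrays. It gave -0.12 ± 0.09 (adjusted p = 0.326) in control cells and -0.22 ± 0.09 (adjusted p = 0.0706) in treated cells. The second passed under 6 of the 23 alternatives run: without microsystem treated 3 (-0.28, adjusted p = 0.0466), without Petri treated 1 (-0.29, adjusted p = 0.0317), without both microsystem arrays numbered 3 (-0.28, adjusted p = 0.0482), with array weights (-0.29, adjusted p = 0.00775), with an intensity trend (adjusted p = 0.046) and with the replicate number as a block (adjusted p = 0.0474). LDHB, the heart form, was far under the filter, with group means between 2.74 and 2.84.

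Pyruvate dehydrogenase kinases switch off the enzyme that feeds pyruvate to the citric acid cycle, and PDK1 is a known hypoxia target. PDK1 read 9.71, 9.96 and 10.09 on the Petri control, 9.46, 9.84 and 9.71 on the Petri treated, 8.56, 8.81 and 8.75 on the microsystem control and 8.10, 7.95 and 8.43 on the microsystem treated arrays. Every microsystem array lay below every Petri array, at -1.21 ± 0.14 (adjusted p = 1.58e-05) in control and -1.51 ± 0.14 (adjusted p = 3.13e-06) in treated cells. PDK2 did not pass (0.03 ± 0.11, adjusted p = 0.857, and 0.07 ± 0.11, adjusted p = 0.628), nor did PDK3 (0.07 ± 0.10, adjusted p = 0.594, and -0.17 ± 0.10, adjusted p = 0.203). PDK4, the starvation-responsive kinase, was under the filter, with group means between 4.12 and 4.62. PDHA1, the catalytic subunit that these kinases phosphorylate, rose in control cells by 0.28 (adjusted p = 0.0121), which was lost without microsystem control 2 (0.21, adjusted p = 0.0601) or Petri control 2 (0.25, adjusted p = 0.0515). In treated cells it gave 0.20 ± 0.08 (adjusted p = 0.0655), which passed without microsystem control 2 (0.20, adjusted p = 0.0453) or with quantile normalization (0.21, adjusted p = 0.032).

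Of the 3 tested gluconeogenic genes only PCK1 passed between cultures. PCK1, the cytosolic phosphoenolpyruvate carboxykinase, read 10.09, 10.04 and 10.16 on the Petri control, 10.09, 10.46 and 10.41 on the Petri treated, 9.69, 9.41 and 8.41 on the microsystem control and 9.22, 9.05 and 9.28 on the microsystem treated arrays. It was lower in the microsystem, at -0.92 ± 0.23 (adjusted p = 0.00584) in control and -1.14 ± 0.23 (adjusted p = 0.00165) in treated cells. Microsystem control 3 was the lowest of all arrays, and without it the difference in control cells was -0.54 (adjusted p = 0.00354). PCK2, the mitochondrial form, did not pass (-0.11 ± 0.12, adjusted p = 0.465, and 0.26 ± 0.12, adjusted p = 0.0999). G6PC1, the glucose phosphatase that lets hepatocytes release glucose, read 7.74, 7.18 and 7.14 on the Petri control, 7.42, 6.95 and 6.68 on the Petri treated, 6.91, 7.33 and 6.37 on the microsystem control and 7.23, 7.43 and 6.87 on the microsystem treated arrays. Its groups overlapped widely, and neither -0.48 ± 0.25 (adjusted p = 0.13) nor 0.16 ± 0.25 (adjusted p = 0.639) passed, although the first did without microsystem control 2 (-0.71, adjusted p = 0.04). FBP1, the fructose bisphosphatase of gluconeogenesis, was under the filter, with group means between 4.42 and 4.64.

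Towards glycogen, UGP2, which makes UDP-glucose, read 10.05, 10.26 and 10.28 on the Petri control, 10.08, 10.16 and 10.13 on the Petri treated, 9.51, 9.63 and 9.68 on the microsystem control and 9.20, 9.35 and 9.76 on the microsystem treated arrays. It was lower in the microsystem, at -0.59 ± 0.12 (adjusted p = 0.00152) and -0.69 ± 0.12 (adjusted p = 0.000594), with no overlap. PGM1, which interconverts glucose phosphates, did not pass (0.16 ± 0.12, adjusted p = 0.294, and -0.17 ± 0.12, adjusted p = 0.287). GYS2, the liver glycogen synthase, was under the filter, with group means between 2.55 and 2.72.

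**Figure D3:**
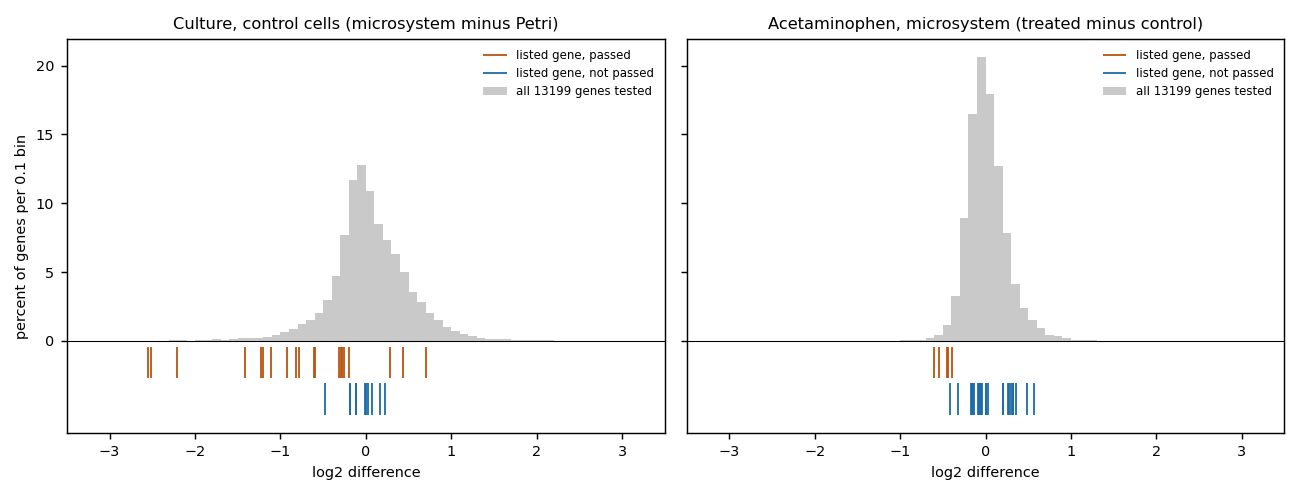
Percent of all 13199 tested genes in bins of 0.1 log2 units (grey), with the 31 tested members as ticks below, for culture in control cells (left) and acetaminophen in the microsystem (right). With culture, the members reach to -2.55 and their median is -0.28, while with acetaminophen they lie within -0.60 and 0.57.

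The second question was how acetaminophen changed these genes. In Petri dishes 3 of 31 members passed: PDK3 rose, and PKLR and PCK2 fell. Over all genes, 8.38% rose and 1.98% fell. Groups did not overlap for 5 members that were lower and 2 that were higher, against 13.5% and 21% of all genes. PDK3, a pyruvate dehydrogenase kinase, read 6.28, 6.53 and 6.40 on the Petri control, 6.83, 7.02 and 7.04 on the Petri treated, 6.43, 6.61 and 6.39 on the microsystem control and 6.88, 6.87 and 6.63 on the microsystem treated arrays. Every Petri treated array lay above every Petri control array, at 0.56 ± 0.10 (adjusted p = 0.00374), or 1.47-fold higher. The rise passed under all alternatives run, with values between 0.50 and 0.62. PKLR fell by 0.40 (adjusted p = 0.0338), without overlap. Its call was lost without Petri control 2 or 3 or any single Petri treated array, with differences of -0.36 to -0.46 and adjusted p-values of 0.0551 to 0.114, and with array medians set equal (-0.36, adjusted p = 0.0518). PCK2 lay between 7.46 and 7.88 on the Petri control and between 6.98 and 7.36 on the Petri treated arrays, and fell by 0.43 (adjusted p = 0.0344). Its call was lost without any 1 of Petri control 2, Petri control 3, Petri treated 1 and Petri treated 3 (-0.31 to -0.48, adjusted p = 0.0592 to 0.141), and with only the arrays compared in the fit (adjusted p = 0.0627).

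In Petri dishes, same-numbered treated and control arrays deviated together, so a fit with the replicate number as a block within each culture is given beside these counts. In it 4 members fell and 2 rose. The calls over all 13199 genes grew too, from 261 to 532 that fell and from 1106 to 1648 that rose. Among members, the added falls were SLC2A2 (-0.32, adjusted p = 0.0169) and G6PC1 (-0.34, adjusted p = 0.0289), and the added rise was ENO2 (0.33, adjusted p = 0.0304). ENO2 was 0.33 ± 0.12 (adjusted p = 0.0885) without the block, and the Petri groups did not overlap. It also passed without microsystem control 1 (adjusted p = 0.0477), with array medians set equal (adjusted p = 0.0455) and with array weights (adjusted p = 0.00886). Each Petri treated array of G6PC1 was below the Petri control array of the same number, although the groups overlapped.

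In the microsystem 5 of 31 members fell with acetaminophen and none rose, against 2.67% and 6.39% of all genes. At an unadjusted p under 0.05, 6 members were lower and 4 higher, and the share of all genes at that threshold was not taken. Groups did not overlap for 8 members that were lower and 2 that were higher, against 12.4% and 15.2% of all genes. Of all genes called in this comparison 70.5% were higher, and with array medians set equal 81.6% were. HK2 fell by 0.60 (adjusted p = 0.0392), although microsystem treated 3 lay above the lowest control array. GPI fell by 0.39 (adjusted p = 0.017), PDK1 by 0.55 (adjusted p = 0.028), PKLR by 0.45 (adjusted p = 0.0234) and PGM1 by 0.44 (adjusted p = 0.0371), each without overlap between the groups. None of the 5 calls held with only the 6 microsystem arrays in the fit, where adjusted p-values ran from 0.064 to 0.132.

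Leaving out single arrays ended each of these calls while keeping its direction. HK2 was lost without microsystem control 2 or 3 or microsystem treated 1 or 2 (-0.47 to -0.61, adjusted p = 0.0972 to 0.149), and PDK1 without the same arrays (-0.44 to -0.52, adjusted p = 0.0701 to 0.124). GPI (-0.31 to -0.36, adjusted p = 0.0528 to 0.0775), PKLR (-0.32 to -0.45, adjusted p = 0.0733 to 0.0852) and PGM1 (-0.32 to -0.44, adjusted p = 0.108 to 0.135) were lost without microsystem control 2 or microsystem treated 2 or 3. HK2 and PGM1 were also lost without Petri control 2 or Petri treated 2 or 3, with adjusted p-values of 0.0517 to 0.0558, since these arrays enter the shared spread, and PGM1 with array medians set equal (-0.41, adjusted p = 0.0519). Among members that did not pass, PFKFB3 gave 0.57 ± 0.21 (adjusted p = 0.106) with no overlap between groups, PDK3 gave 0.32 ± 0.10 (adjusted p = 0.0664) with no overlap and PGK1 gave -0.32 ± 0.10 (adjusted p = 0.0738) with no overlap. PDK3 (0.40, adjusted p = 0.0409) and PGK1 (-0.41, adjusted p = 0.0397) passed without microsystem treated 3, and ENO2 (0.26 ± 0.12) passed without microsystem control 1 (0.38, adjusted p = 0.0476). Without both microsystem arrays numbered 3, 4 members fell and none rose, while of all 13199 genes 158 fell and 519 rose. There PKLR (-0.45, adjusted p = 0.0643) and PGM1 (-0.43, adjusted p = 0.0525) lost their calls, and PGK1 (-0.44, adjusted p = 0.0476) passed.

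Whether acetaminophen acted differently in the 2 cultures was tested as the microsystem treatment effect minus that in Petri dishes. In limma's test no member passed at an adjusted p under 0.05, against 0.0303% of all genes. At an unadjusted p under 0.05 there were 2 of 31 members, and the share of all genes at that threshold was not taken. The first of the 2 was HK2, at -0.60 ± 0.24 (adjusted p = 0.607), with a treatment effect of 0.00 ± 0.17 in Petri dishes and -0.60 ± 0.17 in the microsystem. The other was PCK2, at 0.37 ± 0.17 (adjusted p = 0.672), with -0.43 ± 0.12 and -0.06 ± 0.12. PKLR, which fell in both cultures, had a difference of -0.05 ± 0.16 with a 95% interval from -0.38 to 0.29. G6PC1 had the largest difference of any member, 0.64 ± 0.35, but its interval ran from -0.11 to 1.39. Members that passed in 1 culture are thus not shown to differ between cultures.

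Isozymes of a step can be compared within an array, where only the change of the difference between 2 probe sets is read and not which is brighter. Of 14 pairs, 9 had both genes tested, giving 36 comparisons between groups of 3 arrays. The two-sided exact permutation test cannot go below p = 0.1 here, before or after adjustment over the 36, so no pair could pass and the values are descriptive. The lowest adjusted p of this test was 0.18. ENO2 minus ENO1 changed between cultures by -1.16 log2 units in control cells, from -2.86 ± 0.07 in Petri dishes to -4.03 ± 0.26 in the microsystem (SD, n = 3, exact p = 0.1), and by -1.12 in treated cells. SLC2A3 minus SLC2A1 changed by -1.43 and -1.21, with the arrays of the cultures apart in both treatments. PDK2 minus PDK1 changed by 1.24 and 1.58, also without overlap. PFKFB4 minus PFKFB3 was higher in the microsystem by 1.28 among control and 0.58 among treated cells, and it changed by -0.61 with acetaminophen in the microsystem. PCK2 minus PCK1 was 1.39 higher in the microsystem among treated cells, and changed by -0.66 with acetaminophen in Petri dishes. PKLR minus PKM changed by 0.01 and -0.02 between cultures, but by -0.46 and -0.48 with acetaminophen in Petri dishes and the microsystem, each without overlap. SLC2A1 minus SLC2A2 was higher with acetaminophen in both cultures, by 0.44 and 0.74. ALDOC minus ALDOA changed by between -0.19 and 0.15 over the 4 comparisons.

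**Figure D4:**
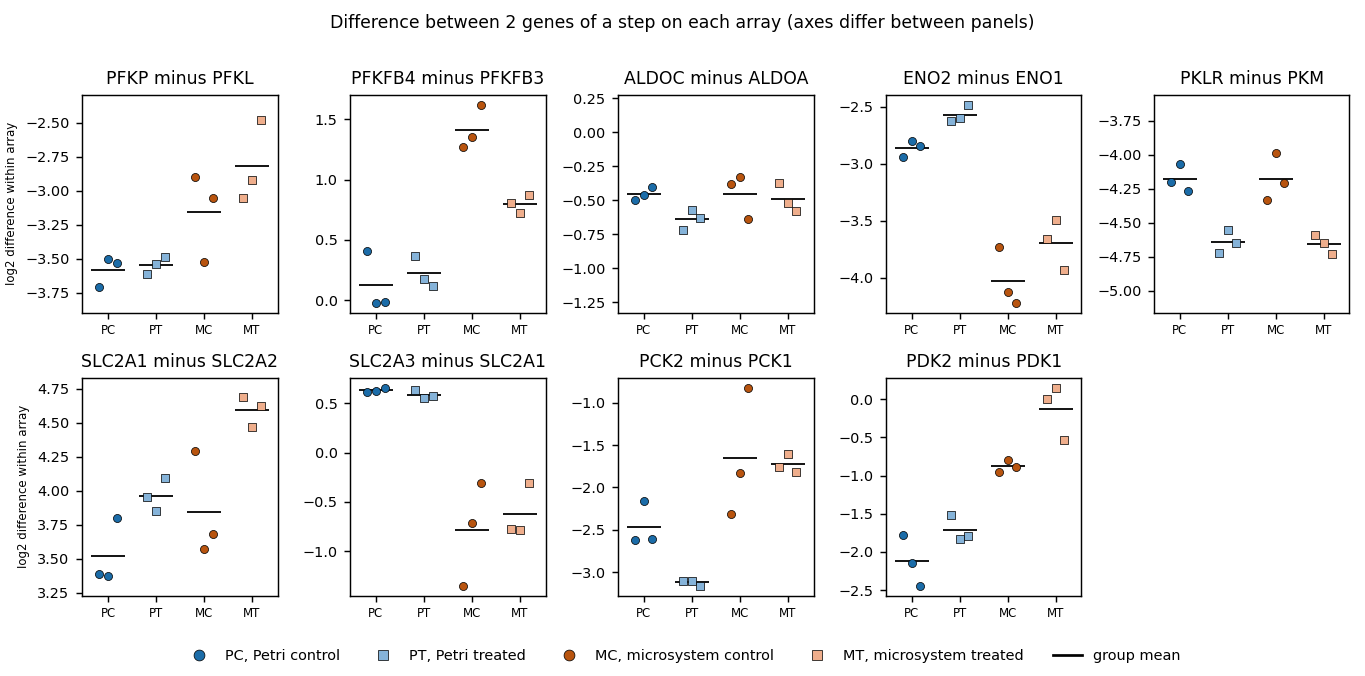
Difference of the log2 intensities of 2 genes of the same step on each array, for the 9 pairs with both genes tested, with a line at each group mean; axes differ between panels. ENO2 minus ENO1 and SLC2A3 minus SLC2A1 are lower in both microsystem groups, while PKLR minus PKM is lower in both treated groups.

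Neighbouring pathways were read from other lists, with the same test. Of 13 other tested enzymes of glycolysis and gluconeogenesis, 7 rose and 1 fell between cultures in control cells, and 6 rose and 2 fell in treated cells. The shares of all genes that rose and fell were the 26.5% and 18.3% (control) and 22.6% and 18.9% (treated) given above. Values named are from control cells unless stated. TIGAR, a p53 target that removes the activator of phosphofructokinase, rose by 1.47 (adjusted p = 2.76e-07). PC, pyruvate carboxylase, rose by 1.24 (adjusted p = 2.3e-05) and HKDC1, a hexokinase domain protein, by 0.89 (adjusted p = 3.28e-05). Of 7 tested pentose phosphate genes 4 rose and none fell, TALDO1 by 0.98 (adjusted p = 1.76e-06), PGD by 0.79 (adjusted p = 3.92e-06) and RPIA by 0.49 (adjusted p = 0.00621). In treated cells 3 of the 7 rose, and RPIA gave -0.12 (adjusted p = 0.474). In the pyruvate dehydrogenase and pyruvate entry list, 5 of 8 rose and 1 fell, with MPC1, a mitochondrial pyruvate carrier, up by 0.66 (adjusted p = 0.000604), DLD by 0.45 (adjusted p = 0.00282), and PDHX down at -0.35 (adjusted p = 0.00318). In treated cells 2 of these 8 rose and 1 fell, and MPC1 gave 0.28 (adjusted p = 0.0824). Of 14 glycogen genes 3 rose, among them PYGB (0.74, adjusted p = 4.18e-05) and PHKG2 (0.73, adjusted p = 1.91e-05), and 7 fell, among them PPP1R3B (-0.68, adjusted p = 0.000129), which targets a phosphatase to glycogen; in treated cells 2 rose and 7 fell. Of 12 other sugar and lactate transporters 3 rose, among them SLC2A8 (0.51, adjusted p = 0.00105), and 3 fell, among them SLC2A14 (-2.13, adjusted p = 5.45e-05) and BSG, the chaperone of lactate transporters (-0.65, adjusted p = 7.92e-06). In treated cells 3 of the 12 rose and 4 fell. No alternative run ended the call in control cells of a gene named here.

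Targets of hypoxia-inducible factors outside glycolysis were all lower in the microsystem, 12 of 12 tested in control cells with a median of -1.25, and 12 of 12 in treated cells with a median of -1.22. In the same comparisons 18.3% and 18.9% of all genes fell, and the medians over all genes were 0.01 and 0. This list, like the others, was chosen with earlier results of these data known. NDRG1 gave -2.47 (adjusted p = 3.34e-07), VEGFA, the angiogenic growth factor, -2.21 (adjusted p = 1.9e-07), and EGLN3, an oxygen-sensing prolyl hydroxylase, -1.88 (adjusted p = 5.24e-08), in control cells. Among these 12, ADM lost its call in control cells without Petri control 3 (adjusted p = 0.0509), and EGLN1 without microsystem control 3 or Petri control 2 (adjusted p up to 0.0969). Both also lost it in treated cells without either of Petri treated 2 and 3 and without some microsystem treated arrays (1 or 2 for ADM, 3 for EGLN1), with adjusted p-values up to 0.156 and 0.055. The part of these targets in the lower level of the glycolytic members was not tested. Among the leukocyte markers, CD68 (-1.05, adjusted p = 2.01e-06) and CD14 (-0.43, adjusted p = 0.00757) also fell, 2 of 4 markers. The summed level of the 4 lay between 9.28 and 9.49 on the Petri control and between 8.42 and 8.47 on the microsystem control arrays. It is the log2 of summed linear intensities, to which CD68, the brightest of the 4, adds most. PTPRC and CD3E did not pass the filter, and the part of these markers in the result was not tested. The summed level of the 7 hepatic markers overlapped, at 15.00 to 15.21 and 15.02 to 15.28. By limma's test, AFP (0.49, adjusted p = 0.00815) and ALB (0.28, adjusted p = 0.0129) nevertheless rose in control cells. TF fell there (-0.35, adjusted p = 0.0061), and the other 4 did not pass. In treated cells ALB rose (0.23, adjusted p = 0.0358), TF fell (-0.25, adjusted p = 0.0368) and 5 did not pass.

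With acetaminophen in Petri dishes TIGAR rose by 0.91 (adjusted p = 0.000143) and PPP1R3B by 0.56 (adjusted p = 0.00362), calls that held under every alternative run. HKDC1 fell (-0.43, adjusted p = 0.0282), a call lost without any single Petri array other than Petri treated 2 (-0.32 to -0.53 and adjusted p up to 0.0956 over all alternatives). GCKR, the glucokinase regulator, fell (-0.51, adjusted p = 0.037), and lost its call without any single Petri array or microsystem treated 1 (-0.40 to -0.59, adjusted p up to 0.12). ADPGK, an ADP-dependent glucokinase, rose (0.28, adjusted p = 0.0423), and lost it without Petri control 1 or 2, Petri treated 2 or 3, microsystem control 2 or microsystem treated 1 or 2 (0.22 to 0.37 and adjusted p up to 0.168 over all alternatives), and also with only the arrays compared, with quantile normalization or with no filter. P4HA2, a collagen prolyl hydroxylase, rose (0.37, adjusted p = 0.0163), and lost it without Petri control 1 or Petri treated 2 or 3 (0.32 to 0.42, adjusted p up to 0.0764). In the microsystem SLC2A8 (0.52, adjusted p = 0.00753) and P4HA2 (0.47, adjusted p = 0.00602) rose under every alternative run. PPP1R3B rose (0.46, adjusted p = 0.0145), and RPIA (-0.61, adjusted p = 0.0107) and BNIP3, a mitophagy receptor (-0.44, adjusted p = 0.0184), fell. Each of these was lost without microsystem treated 2, PPP1R3B and BNIP3 also without microsystem control 2 and BNIP3 also without microsystem treated 3. All 3 were also lost with only the arrays compared in the fit, and PPP1R3B without both microsystem arrays numbered 3. Over all alternatives run their values lay within 0.37 to 0.56 for PPP1R3B, -0.73 to -0.54 for RPIA and -0.54 to -0.35 for BNIP3, with adjusted p-values up to 0.0636, 0.0583 and 0.0894. TIGAR gave 0.33 (adjusted p = 0.0556) in the microsystem, and the difference of its treatment effects was -0.58 (adjusted p = 0.264). No gene of the pyruvate dehydrogenase list passed with acetaminophen in either culture.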

How the data were processed

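Per the submitters' processing notes, the authors used Affymetrix Expression Console and RMA (robust multi-array average). What the authors deposited is a log2 intensity for each probe set on each array. The sources used here give no program versions, genome build or dose, so the only positions printed are those of RefSeq promoters. The values were used without new normalization. Background correction and normalization across arrays, as RMA does them, make values relative and compress low signals.

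Of 32321 probe sets, 19158 had 1 symbol, 1388 several and 11775 none in the array annotation. A gene stayed in where 3 or more arrays were above their own 40th percentile. In limma 3.58.1 (R 4.3.3), 1 model with a mean for each group covered all 12 arrays and 13199 genes, with 8 residual and 5.35 prior degrees of freedom. Tests were two-sided, with adjusted p-values by Benjamini-Hochberg over all genes. The procedure was tested on simulated data. Array values are printed for members past the threshold by 0.5 log2 units or more and for main liver or proliferative isoforms, and up to 3 genes of each other list are named by adjusted p. The members and lists were chosen with earlier results of these data known. The text also rests on the R package data.table (1.17.8), Python 3.11.15, pandas 2.3.3 and matplotlib 3.10.9.

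Deviations from the group mean of same-numbered arrays were correlated across genes to check whether numbers pair the arrays. Between Petri treated and control arrays r was 0.48, 0.19 and 0.31, and 6 of 6 arrays correlated best with their own number, so these numbers were taken to pair the arrays. The pairing comes from the data and not from the labels. The description of Petri treated 3 has an unexplained asterisk.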

Additional observations from a re-analysis of the deposited data

How the results depend on the processing

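Of 48 member calls, 32 held under each of the 24 alternatives that could be run for them, and the settings that ended the others stand beside the results, without their full range. Over all alternatives HK2 with acetaminophen in the microsystem ran from -0.81 to -0.47, and SLC2A1 between cultures in treated cells from -0.84 to -0.42. The culture counts stayed within 1.5 times, except that 1 member rose among treated cells with a 60th percentile filter, which left BPGM and PFKFB1 untested. TPI1 reversed among control cells with the mean of its probe sets (0.08). For treatment in Petri dishes, 1 member fell with only the arrays compared, 1 with array medians set equal and 4 with the replicate block within each culture, and 0 to 2 with single arrays left out. There 2 rose with that block, with medians set equal and with array weights, and 1 to 2 with single arrays left out. For treatment in the microsystem, 0 fell with only the arrays compared and 0 to 5 with single arrays left out, while 1 rose with the replicate block, 6 with the replicate block within each culture, 1 with medians set equal and 0 to 1 with single arrays left out. The cause of the other changes was not tested.

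The replicate numbers gave r of 0.11, 0.07 and 0.60 for treatment in the microsystem (2 of 6 arrays best with their own number), 0.18, -0.03 and 0.13 for culture in control cells (3 of 6) and 0.14, -0.14 and 0.13 in treated cells (2 of 6), so not every pair was over 0.1 and these numbers were not taken to pair the arrays. The microsystem arrays numbered 3 nevertheless deviated together, as their r of 0.60 shows. With the block within each culture, 6 members rose with acetaminophen in the microsystem, PFKFB3 (0.57, adjusted p = 0.00392), SLC2A3 (0.48, adjusted p = 0.00643), PDK3, SLC2A1, PFKP and G6PC1 (adjusted p = 0.02 to 0.0441), and 6 fell, SLC2A2 (-0.42, adjusted p = 0.00504) besides the 5 of the fit without it. Of all 13199 genes, 1383 rose and 726 fell in that fit, against 843 and 353 in the fit without a block. With the replicate block, 18 members fell and 3 rose with culture in control cells, and 18 fell and 4 rose in treated cells. Over all genes, 2584 fell and 3700 rose there in control cells, and 2659 fell and 3161 rose in treated cells. The block within each culture could not be fitted between cultures. No member passed for the difference of treatment effects under any alternative. No scaling moved the median of all genes by over 0.05. The number of arrays limits the precision.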

Other observations

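Several members, like many other genes, held their extreme value on the same 2 arrays. Of 31 tested members, 6 were highest on the array numbered 3 in both microsystem groups (HK2, PFKP, SLC2A1, SLC2A2, SLC2A3 and UGP2), and 11 were lowest there in both (PFKFB1, PFKFB2, PFKFB3, PFKFB4, ALDOC, ENO2, PKM, PKLR, PDK3, G6PC1 and PGM1). The same held for 20.5% (highest) and 20.2% (lowest) of all 13199 genes tested. The 6 of 31 that were highest are thus no more than the share of all genes, while the 11 of 31 that were lowest are above it. Within each microsystem group, the 3 transporters and HK2 were thus high on the array where PFKFB3, PFKFB4 and ENO2, but also PKM, PKLR and G6PC1, were low. These are the arrays that stand apart on the third principal component.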
